A study of Mus musculus with 24 samples.

Results

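Active (AS) and passive (PS) coping mice were compared under dexamethasone (DEX), a synthetic agonist of the glucocorticoid receptor (GR), by setting the 4 DEX-treated AS prefrontal cortex (PFC) libraries against the 4 DEX-treated PS libraries for all 14074 genes in the table. These are 8 of the 24 libraries of the PFC series, which holds 6 groups of 4 male C57BL/6 mice, and each mouse gave 1 library. The AS and PS mice had been through 30 days of social defeat by CD1 aggressors and were sorted into the coping types by clustering of their behaviour in non-aggressive contact. On the day after the last defeat they received 2 mg/kg DEX or saline, and tissue was taken 6 h later, as in the undefeated control mice. All 8 DEX-treated stressed mice therefore share the defeat and the drug and differ by the behavioural class alone as far as the labels say, and the saline-treated AS and PS mice are other animals with the same classes. The dissected block held secondary motor, anterior cingulate, orbital, prelimbic and infralimbic cortex. The question was whether GR activation left the cortex of the AS and PS animals in different states of gene expression.

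As background, GR is a nuclear receptor that moves to the nucleus when bound by a glucocorticoid and raises or lowers the transcription of genes near its binding sites. Neurons, astrocytes, microglia and the cells of blood vessels all carry it, so a bulk cortical response mixes many cell types. In such samples fewer cells of a type and less RNA per cell cannot be told apart.

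Levels are normalized counts, for which the count of a gene is scaled by the size factor of its library. Fold changes are differences of group means on log2(normalized count + 1), AS minus PS, which understates the change of low genes, and come from one limma model of all 24 libraries. Genes were called at a Benjamini-Hochberg adjusted p under 0.1. Values per mouse are listed in the order PS mice 6, 34, 52 and 56 and AS mice 38, 42, 60 and 72. Reads on genes ran from 22253648 to 32055506 in the PS libraries and between 24908942 and 52422858 in the AS libraries (exact permutation test, two-sided, p = 0.0857, smallest possible p = 0.0286), and the share of mitochondrial reads from 4.47% to 5.29% and from 4.38% to 6.69% (p = 0.286 by the same exact test). Superficial and deep cortical layer markers were present (10 of 11 and 14 of 17 listed genes were in the table). PS mouse 34 and AS mouse 60 stood apart from the other 6 libraries, with scores of 20.02 and 21.29 on the first principal component (43.8% of the variance over the 12018 genes averaging 100 or more normalized counts) against -12.7 to -0.68. In PS mouse 34 the mean centred log2 value of 10 olfactory bulb markers was 2.24, against -0.83 to -0.65 in the other PS mice and -0.93 to 0.56 in the AS mice. Under saline it was 1.60 in PS mouse 2, against -1.20 to -0.31 in the other PS mice. It was 1.54 in saline-treated AS mouse 14, against -0.85 to 0.06 in the others, and 2.36 in control mouse 117, against -0.94 to -0.18. AS and PS libraries did not form separate groups: the median correlation was 0.991 over the 16 AS with PS pairs, 0.989 over the 6 AS pairs and 0.989 over the 6 PS pairs.

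Under DEX, no gene passed the threshold between AS and PS animals. The count was 0 of 14074 genes (0%) by limma, with a smallest adjusted p of 0.239, and 580 genes (4.12%) had an unadjusted p under 0.05, of which 273 (1.94%) were higher and 307 (2.18%) lower in AS. An edgeR quasi-likelihood test on the recovered reads also gave 0 genes with 596 at an unadjusted p under 0.05, and a DESeq2 Wald test gave 4 with 588. In 104 genes (0.739%) all 4 AS libraries lay above all 4 PS libraries, and in 136 (0.966%) all lay below.

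The data bounded the size of most differences. The 95% confidence interval lay within a 1.5-fold difference either way for 12127 genes (86.2%) and within 2-fold for 13262 genes (94.2%). Among the 12018 genes averaging 100 or more normalized counts, 11548 (96.1%) and 11969 (99.6%) met these bounds. The median size of the log2 fold change over all genes was 0.07 with a median SE of 0.10. A difference exceeding 1 on the log2 scale was seen in 59 genes, and only 1 of these had a mean of at least 100. In the plot of log2 fold change against mean level the non-overlapping genes lie on both sides of 0 over most of the range of levels.

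**Figure D1:**
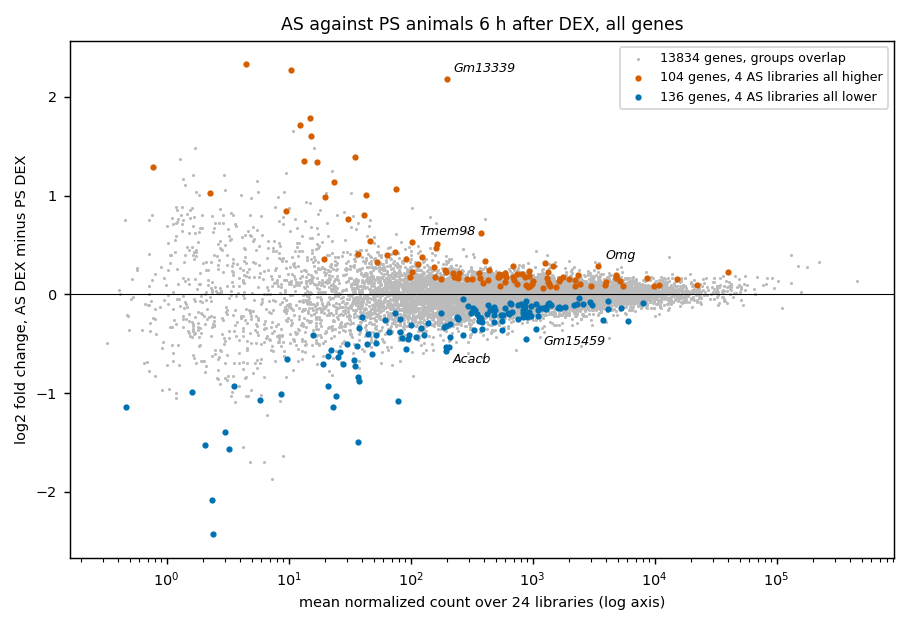
Log2 fold change, AS minus PS under DEX, of each of the 14074 genes (y axis) against its mean normalized count over 24 libraries (x axis, log scale). Orange points are the 104 genes whose 4 AS libraries all lie above the 4 PS libraries, blue points the 136 whose AS libraries all lie below, and grey points the other genes. No gene passed the limma threshold, and the spread of the differences narrows as the level rises.

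The AS and PS groups overlapped in each of the 7 GR-related genes used to check the DEX label, and the intervals bound how far their levels could differ. Fkbp5, a co-chaperone that lowers the hormone affinity of GR (chromosome 17, 28399094 to 28517527, mm10), had 3271, 3774, 3316 and 3765 normalized counts in the PS mice and 2931, 3484, 2965 and 4038 in the AS mice, a log2 fold change of -0.08 (SE 0.11, 95% interval -0.30 to 0.14). The lowest and the highest of the 8 values were both in AS mice. Tsc22d3, also called Gilz, a mediator of anti-inflammatory glucocorticoid action, had 2533, 2626, 2565 and 2512 in PS and 2360, 2650, 2763 and 2970 in AS (log2 fold change 0.06, interval -0.12 to 0.25). Sgk1, a kinase that regulates ion channels and transporters, had 1994, 1848, 2236 and 1906 in PS and 1856, 2188, 2120 and 2311 in AS (0.09, interval -0.13 to 0.30). In both genes the 2 groups overlapped. Per1, a clock gene that GR also induces, differed by 0.01 (interval -0.16 to 0.18), and Nr3c1, which encodes GR itself, by 0.02 (interval -0.19 to 0.23). For Plin4, a lipid droplet protein, the interval ran from -0.74 to 0.50, and for Lcn2, an iron-scavenging acute-phase protein with 10.3 to 44.6 normalized counts in PS and 8.53 to 38.0 in AS, from -1.29 to 1.06, so that for these 2 genes a 1.5-fold difference was not detectable at this spread. The limma adjusted p with Benjamini-Hochberg adjustment was 0.9998 for each of these 7 genes.

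**Figure D2:**
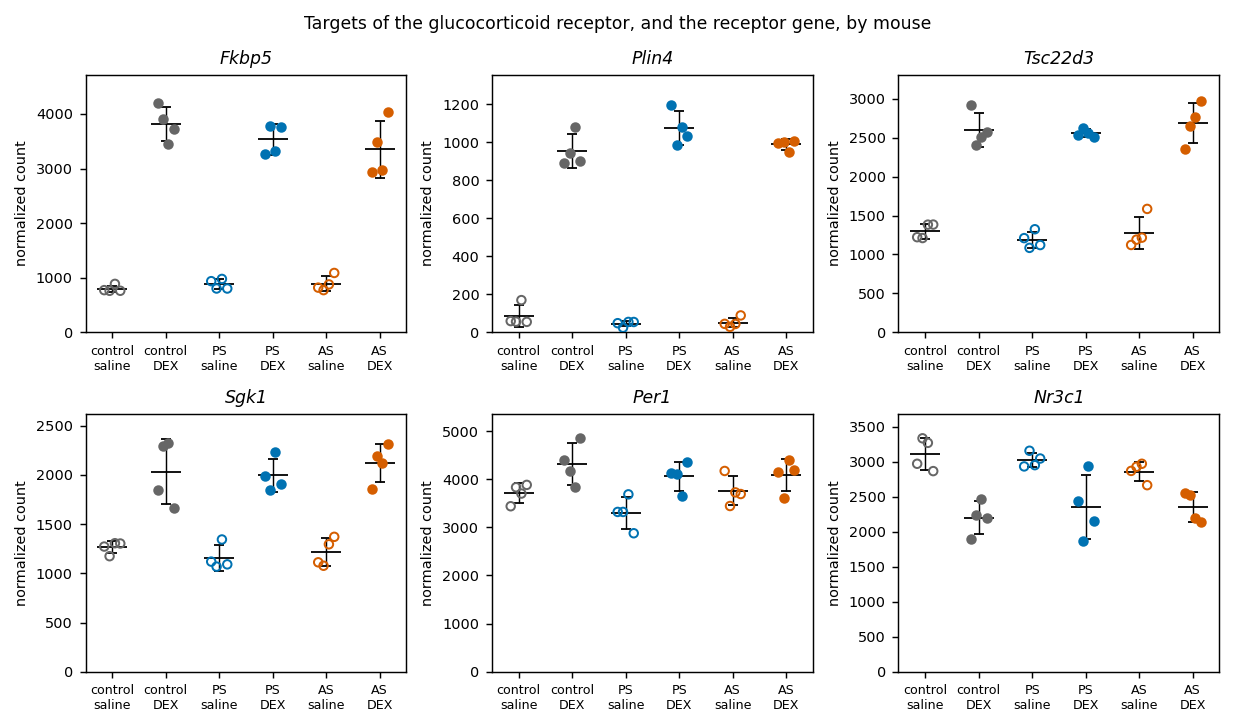
Normalized counts (y axes) of Fkbp5, Plin4, Tsc22d3, Sgk1, Per1 and Nr3c1 in each mouse of the 6 groups (x axis), with saline as open and DEX as filled points, control in grey, PS in blue and AS in orange, and bars for the mean ± SD of 4 mice. In every panel the DEX-treated AS points fall in or overlap the range of the DEX-treated PS points.

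Of 27 GR target genes tested from a list of 28, 13 were higher and 14 lower in AS, none had an unadjusted p under 0.05 by limma (background 4.12%), and the median log2 fold change was -0.0038 against -0.0011 over all genes. The sign of the GR target median depended on the scaling (0.00048 with quantile normalization, 0.05 with library size as a covariate). The interval was within 2-fold for 26 and within 1.5-fold for 24 of the 27. The ends of the range were Map3k6, a stress-activated kinase kinase, at -0.27, and Mt2, a metallothionein that binds zinc and copper, at 0.15. Map3k6 had 279, 291, 307 and 358 in PS and 216, 249, 266 and 295 in AS (-0.27, SE 0.16), with 1 AS value above 2 of the PS values. The list score, the mean over the genes after centring each gene on the 24 libraries, was 0.44, 0.47, 0.36 and 0.56 in the PS mice and 0.25, 0.38, 0.46 and 0.64 in the AS mice, while all saline-treated libraries lay between -0.62 and -0.33. The 19 corticosteroid receptor and chaperone genes tested had 15 members higher in AS, at a median of 0.04 and a range of -0.06 to 0.12, and none at an unadjusted p under 0.05.

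The gene furthest from equality by its p-value was Gm13339, an unprocessed pseudogene on chromosome 2 (22590024 to 22590533), at 27.0, 78.4, 18.2 and 49.0 normalized counts in PS and 97.1, 179, 300 and 167 in AS. The groups did not overlap (43.1 ± 26.9 against 186 ± 84.2, SD, n = 4), and the log2 fold change was 2.18 (SE 0.43, adjusted p = 0.239 by limma). Gm13339 was called by DESeq2 on the recovered reads (adjusted p = 0.0357) and without PS mouse 34 (2.53, limma adjusted p = 0.0332). A pseudogene shares sequence with other genes, so its count is uncertain, and in saline-treated mice the difference was 0.72.

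Among protein-coding genes, those with the lowest p-values and no overlap that were higher in AS included regulators of signalling and glial and neuronal genes. Tank, an adaptor that binds TRAF proteins in innate immune signalling (chromosome 2, 61578585 to 61654171), had 560, 607, 635 and 624 normalized counts in PS and 710, 746, 744 and 760 in AS, a log2 fold change of 0.29 (SE 0.07, limma adjusted p = 0.709). The AS values were close together, and the lowest lay above the highest PS value. Under saline the log2 fold change of Tank was 0.05. Genes named by this rule were picked by their DEX values, so a smaller difference under saline is partly built into the choice. P2ry12, the ADP receptor of microglia by which their processes sense injury, had 674, 660, 725 and 720 in PS and 799, 752, 902 and 831 in AS (0.24, SE 0.07, limma adjusted p = 0.826). Its saline-treated values were higher in both groups and overlapped, at 1195, 1163, 1048 and 1076 in PS and 1084, 1169, 1234 and 1179 in AS. Omg, a myelin-associated inhibitor of neurite growth, had 3059, 3499, 3295 and 2892 in PS and 3578, 3945, 4344 and 3699 in AS (0.29, SE 0.08, limma adjusted p = 0.836). Here the lowest AS value and the highest PS value were 3578 and 3499, a narrow gap. Cd53, a tetraspanin of leukocytes and microglia, had 130, 121, 141 and 136 in PS and 156, 190, 178 and 208 in AS (0.46, SE 0.14).

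Further genes in the same direction were Map6d1, a microtubule-binding protein gene (0.29, with 1166 to 1394 in PS and 1429 to 1778 in AS), and Erlec1, a lectin of endoplasmic reticulum quality control (0.23, 1205 to 1322 and 1376 to 1614). Ccdc181 (0.21), Dctn5, a dynactin subunit (0.15), Neurod1, a neuronal transcription factor (0.25), Tmem98 (0.53) and the lncRNA Gm9828 (0.37) complete the 12 genes by the rule of lowest p among non-overlapping genes with a mean of at least 100. Tmem98 had 84.5, 77.6, 54.6 and 66.4 in PS and 96.4, 86.7, 148 and 85.2 in AS, so its size rested in part on AS mouse 60. None of these genes had a limma adjusted p below 0.7 apart from Gm13339.

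**Figure D3:**
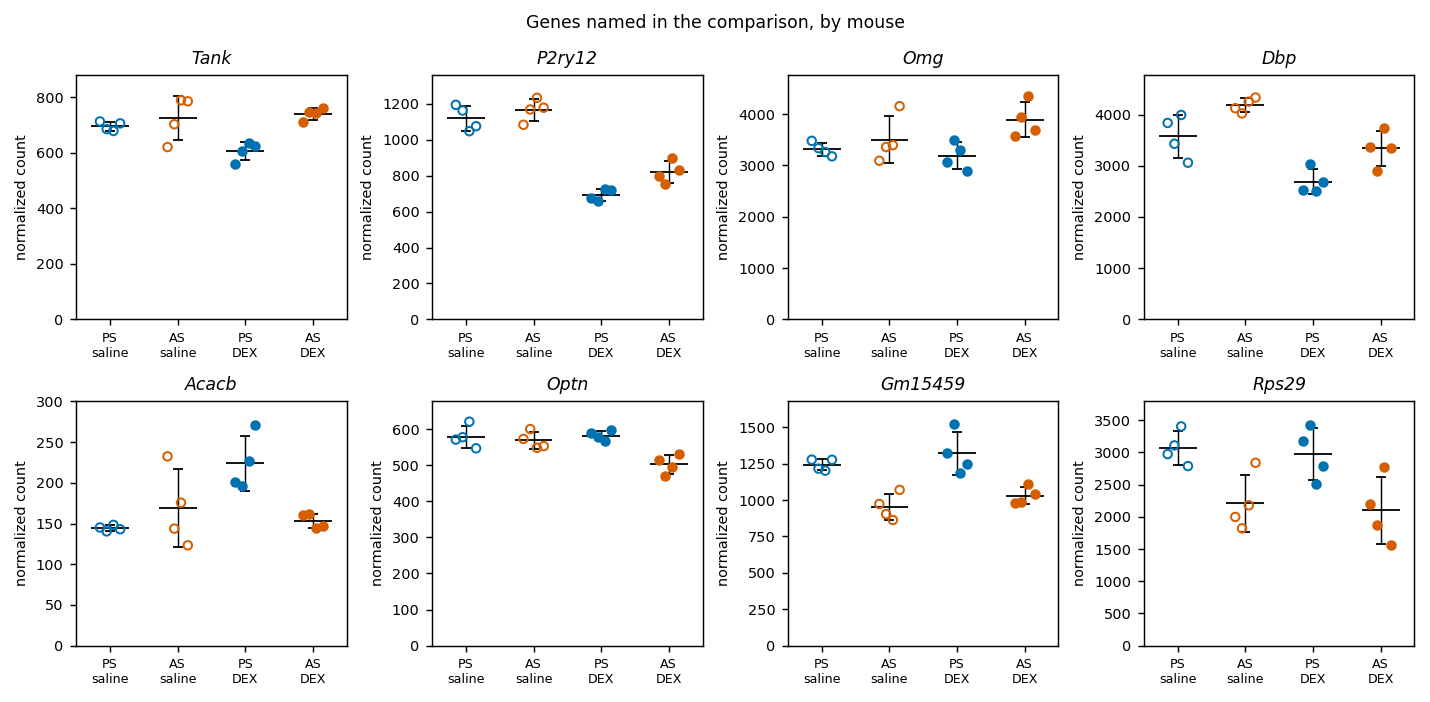
Normalized counts (y axes) of Tank, P2ry12, Omg, Dbp, Acacb, Optn, Gm15459 and Rps29 in each PS (blue) and AS (orange) mouse under saline (open) and DEX (filled), with bars for the mean ± SD of 4 mice. Tank, P2ry12, Omg, Acacb, Optn and Gm15459 were picked for having no overlap of AS and PS under DEX. Of these, only Gm15459 also separates the groups under saline. No gene passed the limma threshold for a difference between the DEX and saline contrasts.

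The genes lower in AS by the same rule held 3 processed pseudogenes and 9 protein-coding genes. Acacb encodes acetyl-CoA carboxylase beta, whose product malonyl-CoA limits the entry of fatty acids into mitochondria (chromosome 5, 114146535 to 114250761). It had 201, 197, 227 and 271 normalized counts in PS and 161, 161, 145 and 147 in AS, a log2 fold change of -0.53 (SE 0.15, limma adjusted p = 0.810), against 0.19 under saline. The test of the difference between these 2 contrasts gave -0.72 (unadjusted p = 0.00252 by limma, adjusted p = 0.9997). Acacb was picked by its DEX values, which enter this test, so the low unadjusted p is partly built into the choice. Optn, an autophagy receptor for ubiquitinated cargo, had 588, 577, 566 and 596 in PS and 514, 471, 495 and 530 in AS (-0.21, SE 0.06, limma adjusted p = 0.810). The Optn values within each group were tight and the difference under saline was -0.03. Unc45a, a myosin chaperone (-0.25), Snx11, a sorting nexin of endosomes (-0.23), and Tdg, a thymine DNA glycosylase that acts in base excision repair and DNA demethylation (-0.19), were of like size. The other 4 were Fuk, a fucose kinase (-0.27), Khnyn (-0.28), Rbm11, an RNA-binding protein (-0.30), and Kif26a, a kinesin family member (-0.53).

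The pseudogene Gm15459 (chromosome 5, 5781615 to 5783555) had 1322, 1524, 1185 and 1250 in PS and 982, 987, 1109 and 1044 in AS, a log2 fold change of -0.35 (SE 0.08, limma adjusted p = 0.341). It did not overlap under saline either, at 1278, 1216, 1202 and 1277 in PS and 973, 904, 863 and 1070 in AS (-0.39). Gm10052 (-0.37, and -0.33 under saline) and Pgam1-ps2, a copy of a glycolytic enzyme gene (-0.36, and -0.43), also lay lower in AS mice of both treatments. Pseudogenes made up 401 of the 14074 genes (2.85%) but 8 of the 20 and 17 of the 50 genes with the lowest p. Of the pseudogenes, 31 were higher and 34 lower in AS at an unadjusted p under 0.05 (16.2%, against 3.71% of protein-coding genes), and their median log2 fold change was -0.00. Reads that match a pseudogene and its parent gene can be placed on either, so these counts are uncertain.

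Endothelial markers were mostly lower in AS under DEX. Of 22 endothelial markers tested, 21 were lower, with a median log2 fold change of -0.27 against -0.0011 over all genes, where 49.5% of genes were higher in AS. At an unadjusted p under 0.05 by limma, 3 markers were lower and 0 higher (13.6% against a background of 2.18%), and for no marker did the groups fail to overlap. Cldn5, the tight junction protein of the blood-brain barrier, had 763, 587, 640 and 1083 normalized counts in PS and 498, 397, 829 and 398 in AS (-0.56, SE 0.23, unadjusted p = 0.0209 by limma). AS mouse 60 exceeded 3 of the 4 PS mice, and PS mouse 56 was the highest of all 8. PS mouse 56 and AS mouse 60 were likewise the highest of their groups in Tie1, a receptor kinase of endothelium, at 251, 162, 196 and 342 in PS and 148, 147, 222 and 145 in AS (-0.49, unadjusted p = 0.0346 by limma). Slco1a4, an organic anion transporter of brain endothelium, was at -0.43, and Slc2a1, the glucose transporter GLUT1 of the barrier, at -0.26 with 3238, 2560, 2789 and 3908 in PS and 2280, 2605, 2953 and 2494 in AS. The exception was Mfsd2a, a lipid transporter of the barrier, at 0.14, with 1044, 1110, 935 and 1075 in PS and 1004, 1022, 1259 and 1315 in AS.

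Summed over the 22 markers, all of which were detected, the PS libraries spanned 10250 to 19390 normalized counts and the AS libraries 10710 to 15090. The endothelial score was -0.06, -0.73, -0.22 and 0.31 in the PS mice and -0.59, -0.60, -0.01 and -0.62 in the AS mice, so that PS mouse 34 was the lowest of the 8 and AS mouse 60 lay with the PS mice. Without PS mouse 34 the median over the markers was -0.47, without AS mouse 60 -0.43, and without PS mouse 56 -0.12 with 19 of 22 lower. Under saline 19 of the 22 markers were higher in AS, with a median of 0.15 (49.3% of all genes were higher in AS under saline). The limma test of the difference between the DEX and saline contrasts gave -0.47 for Slc2a1 (unadjusted p = 0.0183, adjusted p = 0.9997). For Robo4, a guidance receptor of endothelium chosen after its value was seen, it gave -0.91 (unadjusted p = 0.0149 and adjusted p = 0.9997 by limma). These were the only 2 of the 22 markers at an unadjusted p under 0.05 in that test, both below 0, as were 1.44% of all genes. The part of these 3 mice in the difference between classes was not tested beyond leaving them out.

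Mural cell markers, of pericytes and smooth muscle, were placed much like the endothelial ones. Of 13 tested, 11 were lower in AS, with a median of -0.22, and the score was -0.12, -0.68, -0.29 and 0.30 in PS and -0.44, -0.54, -0.31 and -0.41 in AS. Notch3, the Notch receptor of mural cells, had 334, 247, 273 and 369 in PS and 258, 246, 206 and 220 in AS (-0.38, unadjusted p = 0.0391 by limma) and was at 0.34 under saline. The test of that difference gave -0.72 (limma unadjusted p = 0.00761, adjusted p = 0.9997). Notch3 was named for its low p under DEX, so this unadjusted p is partly built into the choice. It was the one mural marker at an unadjusted p under 0.05 under DEX (7.69% lower against 2.18% of all genes). Without single libraries the mural median ran from -0.44 to -0.05, the latter without PS mouse 56, and it was -0.10 with log2 library size as a covariate.

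Other vascular lists held few further genes. Of 19 angiogenesis ligands and receptors 11 were lower, 2 of them at an unadjusted p under 0.05 by limma (10.5% against 2.18% of all genes), which were Tie1 and Notch4, the endothelial Notch receptor. Notch4 had 314, 280, 245 and 407 in PS and 229, 239, 234 and 219 in AS (-0.41, unadjusted p = 0.0154) and was the one member whose groups did not overlap (0.966% of all genes lay below without overlap). Vegfa, the main endothelial growth factor, was at 0.04. Of 21 blood-brain barrier genes 16 were lower, with a median of -0.08, and besides Cldn5 and Slco1a4 the amino acid transporter gene Slc7a5 (-0.16) had an unadjusted p under 0.05 (14.3% against 2.18%). Of 25 collagens, laminins and matrix partners 21 were lower, with Col4a1, a basement membrane collagen, at -0.31, but 13 of 25 were lower without PS mouse 56 and 12 were higher with log2 library size as a covariate.

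The leptomeningeal fibroblast markers depended on single mice. All 17 tested were higher in AS (median 0.16, none at an unadjusted p under 0.05 by limma), yet without PS mouse 34, whose score was -1.24 against -0.44 to 0.44 in the other PS mice, 15 of 17 were lower and the median was -0.14. Without AS mouse 72 the median was -0.01. The olfactory bulb markers behaved the same way, with 8 of 10 lower in AS at a median of -0.36, and a median of 0.29 without PS mouse 34. The median of 5 blood cell markers was 0.30, and 0.01 without AS mouse 60.

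**Figure D4:**
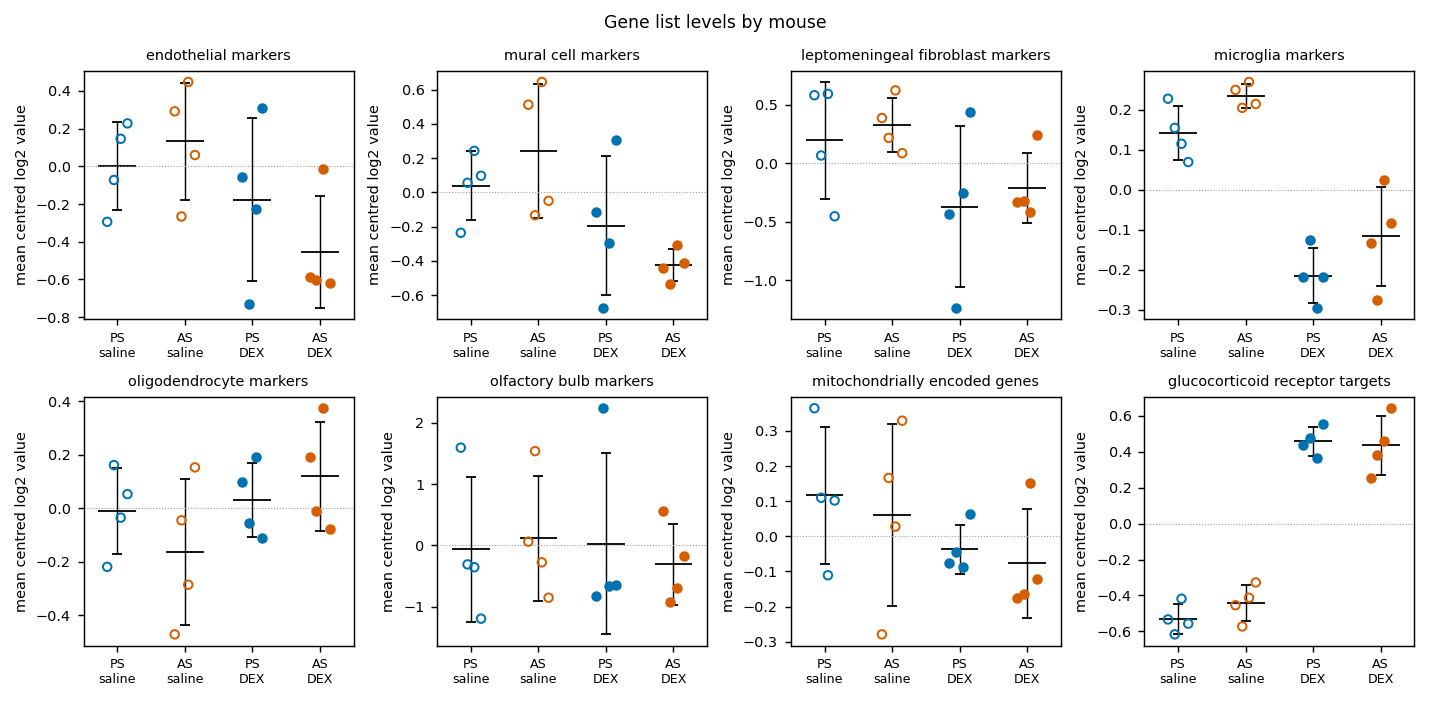
List scores (y axes, mean centred log2 value over the genes of a list) of 8 gene lists in each PS (blue) and AS (orange) mouse under saline (open) and DEX (filled), with bars for the mean ± SD of 4 mice. PS mouse 34 lies at 2.24 for the olfactory bulb list and at -1.24 for the leptomeningeal list, and AS mouse 60 lies apart from the other 3 AS mice for the endothelial list.

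Glial markers were mostly higher in AS by small amounts, in numbers that varied when single mice were left out. Of 18 microglial markers 15 were higher, with a median of 0.11 that stayed between 0.07 and 0.15 when single libraries were left out. P2ry12 was the one member with an unadjusted p under 0.05 (5.56% higher against 1.94% of all genes). The microglial score was -0.22, -0.13, -0.30 and -0.22 in the PS mice and -0.13, -0.27, 0.02 and -0.08 in the AS mice, so the groups overlapped. Of 18 astrocyte markers 15 were higher (median 0.07), and Atp1b2, a sodium pump subunit of astrocytes, had 11980, 14250, 12410 and 12860 in PS and 13460, 14310, 14160 and 17800 in AS (0.21, unadjusted p = 0.0180 by limma). Atp1b2 was the one astrocyte marker at an unadjusted p under 0.05 (5.56% higher against 1.94%). Without AS mouse 72 the astrocyte count was 10 of 18 and the median 0.0066. Of 18 oligodendrocyte markers 16 were higher (median 0.08), none at an unadjusted p under 0.05, and 10 were higher without AS mouse 60 or with library size as a covariate (medians 0.016 and 0.013). Under saline 16 of the 18 microglial markers (median 0.08) and 14 of the 18 astrocyte markers (median 0.08) were also higher in AS. Only 3 of the 18 oligodendrocyte markers were higher in AS under saline, with a median of -0.18. The oligodendrocyte score under DEX overlapped between groups, at 0.10, -0.05, 0.19 and -0.11 in PS and 0.19, -0.01, 0.37 and -0.08 in AS. Among 11 oligodendrocyte precursor markers 7 were higher under DEX (median 0.04), none at an unadjusted p under 0.05. Without AS mouse 72 the count was 4 and the median -0.02.

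Some clock genes lay higher in AS and most lay near 0. The clock is a feedback loop in which CLOCK and ARNTL drive Per and Cry genes, which in turn repress them, and drive output factors through a DNA letter motif called the E-box. Of 20 clock genes tested, 5 were higher and 0 lower in AS at an unadjusted p under 0.05 by limma (25.0% against a background of 1.94%), while the median over the list was 0.03. Dbp, an output transcription factor (chromosome 7, 45705088 to 45710203), had 2523, 3039, 2509 and 2677 normalized counts in PS and 3375, 2902, 3745 and 3344 in AS (0.31, SE 0.09, limma adjusted p = 0.804). AS mouse 42 was below PS mouse 34, so the groups overlapped. Under saline Dbp was also higher in AS, without overlap, at 3836, 3430, 3992 and 3060 in PS and 4124, 4022, 4253 and 4333 in AS (0.23). Hlf, a relative of Dbp, had 8484, 8038, 9427 and 8743 in PS and 8829, 10810, 8865 and 12320 in AS (0.22, unadjusted p = 0.0126 by limma), and its difference under saline was 0.04. In Ciart, a repressor of CLOCK and ARNTL, the groups overlapped, at 854, 982, 846 and 822 in PS and 931, 971, 1238 and 1259 in AS (0.32, unadjusted p = 0.0151), and 0.28 under saline. Bhlhe41, a repressor that binds E-boxes, had 1036, 1163, 1158 and 1088 in PS and 1328, 1163, 1248 and 1238 in AS (0.16, unadjusted p = 0.0404). Rorb, a nuclear receptor that is also a marker of cortical layer IV neurons, had 1009, 1125, 1135 and 1218 in PS and 1328, 1593, 1467 and 1227 in AS (0.32, SE 0.10, unadjusted p = 0.00484), and -0.03 under saline. Of the other 15 clock genes, Nr1d1, a nuclear receptor that represses Arntl, was at 0.17 (0.18 under saline), and 14 lay between -0.02 and 0.04, Clock, Arntl, the Per and Cry genes and Tef, a relative of Dbp, among them. The clock score was highest in AS mouse 72, at 0.18 against -0.02 to 0.05 in the other AS mice. Without it 10 of the 20 genes were higher and the median was 0.00017, while without AS mouse 60 it was 0.08 with 18 higher.

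Promoters of the clock genes were read from RefSeq (GRCm38.p6, 250 bases before to 50 after each gene start) for the 17 of 20 genes in the table of promoters, and searched for the E-box CACGTG, which reads the same on both strands. The motif was present in a promoter of 5 clock genes (Bhlhe41, Ciart, Cry1, Per1 and Tef) and in 2349 of all 32851 promoters (7.15%). The first count is of genes, some with several promoters, and the second is of promoters, so they are not like measures. Of the 5 genes with an unadjusted p under 0.05, Ciart and Bhlhe41 had it, and Dbp, Hlf and Rorb did not have these letters in this window. Both promoters are printed because they carry the motif in members higher in AS, with the E-boxes in capitals, 3 in Ciart (chr3:95882179-95882478, minus strand) and 1 in Bhlhe41 (chr6:145865371-145865670, minus strand).
Ciart: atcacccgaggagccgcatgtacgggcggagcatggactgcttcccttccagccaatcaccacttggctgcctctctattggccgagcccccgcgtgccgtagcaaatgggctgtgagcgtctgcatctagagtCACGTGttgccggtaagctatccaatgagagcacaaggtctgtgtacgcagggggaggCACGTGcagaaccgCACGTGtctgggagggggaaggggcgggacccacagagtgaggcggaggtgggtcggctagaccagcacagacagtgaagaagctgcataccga
Bhlhe41: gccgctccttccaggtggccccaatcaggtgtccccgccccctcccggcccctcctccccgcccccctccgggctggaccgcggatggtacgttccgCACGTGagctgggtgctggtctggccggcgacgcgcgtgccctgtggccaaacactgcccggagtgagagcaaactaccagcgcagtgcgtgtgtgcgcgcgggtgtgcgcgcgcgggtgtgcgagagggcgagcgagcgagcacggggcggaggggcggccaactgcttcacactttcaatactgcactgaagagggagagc
Cry1, Per1 and Tef carried the motif as well, at log2 fold changes of 0.03, 0.01 and 0.03.

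Neuronal lists had medians close to 0, though some held most of their members on one side of it. Of 25 synaptic vesicle release genes 3 were higher at an unadjusted p under 0.05 by limma (12.0% against 1.94%), and the number higher by any amount ran from 13 to 19 as single mice were left out. Vamp2, the vesicle SNARE protein, had 32050, 41080, 34110 and 34760 in PS and 40170, 38250, 41950 and 40830 in AS (0.19, unadjusted p = 0.0140). PS mouse 34 lay among the AS values. Syn1, a vesicle phosphoprotein, was at 0.17 and Cplx2, a complexin that clamps SNARE complexes, at 0.22. Of 14 GABA receptor subunits 12 were higher (median 0.06) and of 22 glutamate receptor subunits 10 (median -0.00), none at an unadjusted p under 0.05 by limma. Of 24 immediate early genes, which report recent neuronal activity, 19 were lower at a median of -0.08, from Egr2 at -0.35 to Nr4a2 at 0.49, and none had an unadjusted p under 0.05. Without PS mouse 56 their median was -0.011 with 14 lower. Adra1b, the alpha-1B adrenergic receptor, had 1126, 1419, 1208 and 1218 in PS and 1055, 1091, 1124 and 995 in AS (-0.22, unadjusted p = 0.0318 by limma). The gap between the groups was 2 counts wide at its edge. Adra1b was the one of 21 monoamine receptor genes at an unadjusted p under 0.05 (4.76% lower against 2.18% of all genes). Of 24 interneuron and neuropeptide genes 10 were higher, or 15 without PS mouse 34, and Npy, neuropeptide Y, was at 0.33 with 1384, 2074, 1587 and 1646 in PS and 1664, 1610, 2902 and 2435 in AS.

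Immune and other lists showed members in both directions. Of 14 antigen presentation genes of MHC class I, B2m, the light chain, was higher in AS (0.26) and the class Ib gene H2-T23 lower (-0.28), each at an unadjusted p under 0.05 by limma. These are 7.14% higher against 1.94% of all genes and 7.14% lower against 2.18%. B2m had 1616, 1842, 1772 and 2050 in PS and 1776, 1989, 2535 and 2488 in AS. Of 19 interferon response genes 1, Ifit3b, was higher at an unadjusted p under 0.05 (0.30, 5.26% against 1.94%), and the number higher by any amount was 7, against 12 without PS mouse 56 and 11 with library size as a covariate. Cd59a, which blocks the complement membrane attack complex, had 151, 133, 146 and 169 in PS and 93.8, 123, 129 and 104 in AS (-0.42, unadjusted p = 0.0197 by limma). Its groups did not overlap. Cd59a was the one of 10 complement genes at an unadjusted p under 0.05 (10% lower against 2.18%). Nfkb1, an NF-kappaB subunit, was at -0.17, and 7 of 9 NF-kappaB genes were lower, 1 of them at an unadjusted p under 0.05 (11.1% against 2.18%). Among 28 heat shock genes 21 were higher, with Cryab, a small heat shock protein, at 0.30. None of 32 chromatin-modifying enzyme genes had an unadjusted p under 0.05.

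Ribosomal and mitochondrial transcripts included some of the lower p-values. Of 80 cytosolic ribosomal protein genes 0 were higher and 2 were lower in AS at an unadjusted p under 0.05 by limma (2.50% against 2.18%). By any amount 30 of the 80 were higher, against 58 without PS mouse 34 and 9 without AS mouse 60. Rps29, a protein of the small subunit, was at 3179, 3427, 2507 and 2790 in PS and 2203, 1879, 2774 and 1559 in AS (-0.52, SE 0.15, limma adjusted p = 0.836). AS mouse 60 was the exception, above PS mouse 52. Of 42 ribosomal protein pseudogenes, 13 were higher (31.0% against 1.94%) and 5 lower (11.9% against 2.18%) at an unadjusted p under 0.05, with a median of 0.32 that was 0.20 with a pseudocount of 8. Rpl9-ps6, annotated as protein-coding but named as a copy of Rpl9, had 38.0, 46.5, 38.9 and 43.5 in PS and 73.5, 70.4, 127 and 92.1 in AS (1.07, SE 0.26, limma adjusted p = 0.690), and 1.07 also under saline. The mitochondrially encoded mt-Atp8, a subunit of the ATP synthase, had 93.1, 80.1, 92.3 and 86.0 in PS and 30.8, 45.0, 69.4 and 82.9 in AS (-0.71, unadjusted p = 0.00391 by limma), and -0.64 under saline. Of the 31 mitochondrially encoded genes 5 were higher (16.1% against 1.94% of all genes) and 2 lower (6.45% against 2.18%) at an unadjusted p under 0.05. Many of the 31 were measured loosely, with log2 fold changes from -1.14 to 1.04 and an interval within 1.5-fold for only 9. Their median was 0.045, and 0 with quantile normalization. Of 83 nuclear genes of oxidative phosphorylation, 41 were higher and 42 lower, 2 of the latter at an unadjusted p under 0.05 (2.41%, near the 2.18% of all genes). The number higher was 55 without PS mouse 34 and 16 without AS mouse 60.

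The direction of most lists was not stable. In 24 of the 42 lists the sign of the median changed in at least 1 of 13 settings, which were the removal of each of the 8 DEX-treated stressed mice and 5 other scalings or tests, and in 18 lists it did not. Among the 18 were the endothelial, mural, microglial, astrocyte, oligodendrocyte, GABA receptor and heat shock lists and the ribosomal protein pseudogenes. Lists whose median changed sign included the superficial and deep layer, border macrophage, interferon, complement, MHC class II, monoamine receptor, potassium channel, cholesterol, axon guidance, chromatin, synaptic vesicle and protocadherin genes, and no direction is given for them. Between the removals, for example, the number higher in AS ran from 17 to 43 of 51 protocadherins, from 13 to 30 of 37 potassium channel subunits, from 10 to 22 of 34 axon guidance genes and from 1 to 6 of 7 border macrophage markers. Among the members of these lists at an unadjusted p under 0.05 by limma were Nsdhl, an enzyme of cholesterol synthesis, at 0.21, Kcnj10, the astrocyte potassium channel Kir4.1, at 0.19, and Sema3c, a secreted semaphorin, at -0.24.

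The saline-treated AS and PS mice share no library with the DEX-treated ones and gave a second view of the coping types, though all 24 libraries share the estimate of the spread. Under saline the limma count was 0 of 14074 (0%, smallest adjusted p 0.206), with 671 genes (4.77%) at an unadjusted p under 0.05, 428 higher (3.04%) and 243 lower (1.73%) in AS, and 402 genes (2.86%) lay without overlap above and 332 (2.36%) below PS. An edgeR test gave 0 with 664, and DESeq2 gave 11 with 699. The difference between the AS to PS contrasts under DEX and saline was 0 genes by limma (smallest adjusted p 0.9997), with 344 (2.44%) at an unadjusted p under 0.05, 142 above 0 (1.01%) and 202 below (1.44%), and 0 by edgeR with 369 and by DESeq2 with 378.

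Across the 14074 genes the 2 log2 fold changes had the same sign in 7631 (54.2%), with a Pearson r of 0.21 and a Spearman rho of 0.12, given as a description because genes are not independent. Over the 12018 genes averaging 100 or more normalized counts both r and rho were 0.12. Of the 580 genes with an unadjusted p under 0.05 under DEX, 414 (71.4%) had the same sign under saline. An unadjusted p under 0.05 in both was seen in 94 genes (16.2% of the 580 and 14.0% of the 671 under saline), and 91 of these had the same sign, 61 higher and 30 lower in AS. Of the 91 genes 31 were pseudogenes and 53 protein-coding. The saline-treated PS libraries held 21493398 to 59439645 reads on genes, and the AS libraries 23481722 to 40268349. With log2 library size as a covariate 79 genes met the same criterion, 59 of them among the 91. With edgeR on reads thinned to 21121869 per library 83 did, 66 of them among the 91. Without PS mouse 34 the count was 178, and without AS mouse 60 it was 72.

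The named genes in this set of 91 were of several kinds. Dbp, Ciart, Vamp2, Syn1, Atp1b2, Rps29, mt-Atp8, Gm15459, Gm10052, Pgam1-ps2 and Rpl9-ps6 have been described with their values. Dctn5, Snx11 and Rbm11, named above by their DEX values, also belong to the set. Their log2 fold changes under saline were 0.11, -0.15 and -0.22. Others, chosen after their values were seen, were Hcfc1r1, a regulator of the cofactor HCF-1, at 1132, 1558, 1090 and 1185 in PS and 1542, 1310, 1721 and 1522 in AS under DEX (0.30, and 0.32 under saline). Fcer1g, the Fc receptor gamma chain of microglia and other myeloid cells, had 98.0, 127, 89.8 and 123 in PS and 131, 126, 168 and 183 in AS (0.47, and 0.37). Csf3r, the G-CSF receptor, had 136, 168, 143 and 161 in PS and 194, 167, 216 and 221 in AS (0.38, and 0.29). In Fcer1g and Csf3r only AS mouse 42 fell within the PS range under DEX, and in Hcfc1r1 PS mouse 34, at 1558, lay above 3 of the 4 AS mice. The processed pseudogene Gm5526, also chosen after its values were seen, had 12.3, 5.17, 4.86 and 5.44 in PS and 23.6, 21.7, 39.6 and 18.4 in AS (1.79, SE 0.35, limma adjusted p = 0.239) and was at 1.52 under saline. Of all genes, 20 lay without overlap in the same direction under both treatments, 6 of them protein-coding, and 1 in opposite directions.

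**Figure D5:**
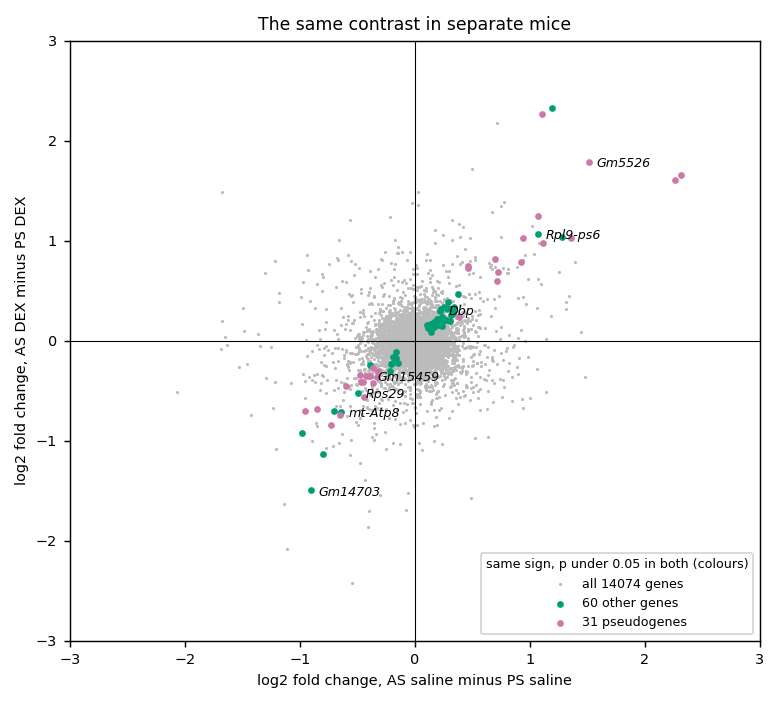
Log2 fold change, AS minus PS, under DEX (y axis) against that under saline (x axis) for each gene. Coloured points are the 91 genes with an unadjusted p under 0.05 and the same sign in both contrasts, 31 pseudogenes and 60 others. Grey points are all other genes, which form a cloud around 0. The Pearson r was 0.21 over all 14074 genes and 0.12 over the 12018 averaging 100 or more normalized counts.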

How the data were processed

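PFC poly(A) RNA of 24 male mice, 1 library per mouse, had been sequenced strand-specifically with paired ends. Groups were taken from the sample labels, with library names that begin with dep1 taken as PS and those with dep2 as AS. Per the labels and methods, the authors trimmed reads with fastp 0.20.1, aligned them to mm10 (GRCm38) with HISAT2 2.2.1, counted them with featureCounts (Subread 2.0) on GENCODE vM22 genes and normalized them with DESeq2 1.36.0. To make the deposited signal values, the authors scaled the counts by a size factor for each library, so every value carries that scaling and the placement of reads between near-identical genes. The authors' comparison tables hold their own fold changes and p-values and were not used. No column of per-sample values was left out.

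The deposited values were whole multiples of 1 read (tolerance 0.01 read) for 100% of the values. The recovered reads, 21121869 to 59439645 per library, were used for depth and count tests, and low genes are measured with less precision.

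All 14074 genes were tested in R 4.3.3 by limma 3.58.1 with a mean-variance trend, after the transform log2(normalized count + 1), in a model of 24 libraries and 6 group means, with Benjamini-Hochberg adjustment. Alternatives were edgeR 4.0.16 and DESeq2 1.42.0 on the recovered reads, edgeR after thinning, other pseudocounts, filters, normalization and covariates, a fit of only the groups compared, and each library left out in turn. The steps were tested on simulated data. Named genes were the 12 with the lowest p each way among genes without overlap and with a mean of at least 100, the most abundant gene and the 2 lowest p-values of each of 42 lists, and 7 genes checking the DEX label. 1 gene that the rule named is not reported here. The comparison, the lists and this rule were chosen with earlier results of these data known. Mean ± SD are over n = 4 mice. Gene coordinates are those of the deposited annotation (mm10).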

Additional observations from a re-analysis of the deposited data

Results flagged for a closer look

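A value far from the other 3 mice of its group was found in 9 of 150 group values checked, by the gap to the nearest mouse as a share of the group's range, a criterion that chance meets in about 1 in 20 groups. PS mouse 34 stood above the other DEX-treated PS mice in the olfactory bulb marker score (2.24, nearest -0.65) and in the interneuron and neuropeptide score (0.40, nearest -0.12). AS mouse 60 stood above the other DEX-treated AS mice in the endothelial score (-0.012, nearest -0.59), the immediate early gene score (0.19, nearest 0.01) and the score of mitochondrially encoded genes (0.15, nearest -0.12). It stood below them in the score of chromatin-modifying enzymes (-0.24, nearest -0.02) and of protocadherins (-0.43, nearest 0.04). AS mouse 72 stood above the others in the leptomeningeal fibroblast score (0.24, nearest -0.33) and below them in Snx11, with 722 normalized counts against 849 in the nearest mouse. Of the 9 values, 5 are from AS mouse 60, which was the lowest of the 8 DEX-treated stressed libraries in 2970 and the highest in 2403 of 12018 genes.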

How the results depend on the processing

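The count of genes between AS and PS under DEX was 0 with limma and stayed 0 with a pseudocount of 8, either filter on low values, quantile normalization, library size or the olfactory bulb score (added after seeing the data) as a covariate, robust variance estimates, edgeR on all or thinned reads, and a fit of only the groups compared. With DESeq2 it was 4 (Gm13339, Gm5526, Gm15459 and Gm14703). Leaving out single libraries gave 0 to 2, with 2 without PS mouse 34 (Gm13339 and Gm27000) and 1 without saline-treated PS mouse 68 (Gm15536), and 384 to 997 genes at an unadjusted p under 0.05, the most without PS mouse 34. Without PS mouse 34 and AS mouse 60 together, chosen after seeing the data, it was 5 (Gm13339, Ocln, Neat1, Slco1a4 and Gm27000). Under saline DESeq2 gave 11, edgeR on thinned reads 1, and leaving out single libraries 0 to 5, with 5 without AS mouse 44 and 1 without PS mouse 34. The difference between the contrasts was 0 in each setting. The cause of these moves was not tested. Of 5309 values of the 148 named genes in these settings, 5213 kept their sign and remained uncalled, 6 passed it and 7 moved by more than the spread between mice. The other 83, in 33 genes and with no call among them, had the opposite sign to the reported log2 fold change, with at most 12 in one setting.

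No paired analysis was possible because mouse numbers do not recur between groups.

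The log2 fold changes of opposite sign follow. With library size as a covariate they were -0.0086 for Klf9, 0.014 for Stab1, -0.034 for Mbp, -0.0080 for Vegfa, -0.015 for Gria2, -0.012 for Gabbr1, 0.021 for Apoe, 0.11 for Plin4 and -0.016 for Nr3c1. With quantile normalization they were -0.033 for Hsp90ab1, -0.070 for Slc1a2, -0.017 for Gria2, -0.043 for Gabbr1, -0.035 for Snap25 and -0.0026 for Per1. Without PS mouse 34 and AS mouse 60 they were -0.031 for Ptgds, -0.015 for Maf, -0.083 for Mbp, 0.061 for Kctd12, 0.66 for Aqp1, -0.0058 for Drc1, 0.10 for Egr3, -0.036 for Gria2, 0.049 for Epha4, 0.0049 for Fkbp5, -0.021 for Per1 and -0.055 for Nr3c1. With edgeR on thinned reads they were -0.0053 for Maf, 0.031 for Egr3, -0.0032 for Gabbr1 and -0.026 for Nr3c1. With edgeR they were 0.019 for Egr3 and -0.0029 for Gabbr1. With DESeq2 it was 0.024 for Egr3. With the olfactory bulb covariate they were -0.00095 for Gria2 and -0.00057 for Gabbr1. Leaving out single libraries, the range was -0.0090 to 0.074 for Klf9, -0.046 to 0.45 for Ptgds, -0.00044 to 0.76 for Slc47a1, -0.10 to 0.64 for Ogn, -0.044 to 0.087 for Maf, -0.13 to 0.52 for Mrc1, -0.061 to 0.17 for Mbp, -0.054 to 0.22 for Rasgrf2, -0.041 to 0.79 for Kcnj13, -0.83 to 0.53 for Aqp1, -0.068 to 0.13 for C1qb, -0.11 to 0.12 for Egr3, -0.00049 to 0.10 for Tef, -0.0056 to 0.10 for Vegfa, -0.0043 to 0.10 for Slc3a2, -0.052 to 0.044 for Gria2, -0.22 to 0.0063 for Grin3a, -0.024 to 0.033 for Gabbr1, -0.13 to 0.046 for Apoe, -0.15 to 0.086 for Epha4, -0.017 to 0.095 for Atp5b, -0.061 to 0.14 for Pcdh10, -0.041 to 0.067 for Per1, -0.47 to 0.28 for Lcn2 and -0.086 to 0.13 for Nr3c1.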

Other observations

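Genes outside the rule for named genes, chosen after their values were seen, included 2 lncRNA genes and 1 low pseudogene. Gm14703, on the X chromosome (7651106 to 7657258), had 91.9, 79.3, 31.6 and 42.4 normalized counts in the PS mice and 24.9, 23.8, 14.0 and 16.1 in the AS mice under DEX, a log2 fold change of -1.498 (SE 0.39), and -0.90 under saline. Gm27000, also on the X chromosome (88759471 to 88760312), had 507, 259, 403 and 400 in PS and 262, 213, 293 and 246 in AS (-0.60, SE 0.15), with PS mouse 34 inside the AS range. The pseudogene Gm15536 had 1.23, 3.45, 1.21 and 3.27 in PS and 11.2, 11.9, 16.5 and 17.3 in AS. Neat1, a nuclear lncRNA that scaffolds paraspeckles, had 1422, 622, 1311 and 1453 in PS and 978, 840, 1338 and 856 in AS. Ocln, a tight junction protein gene, had 197, 84.5, 187 and 217 in PS and 102, 125, 168 and 121 in AS. In both genes PS mouse 34 was the lowest of the 8 and AS mouse 60 the highest of the AS mice. Slco1a4 had 1156, 644, 1140 and 1501 in PS and 703, 780, 1147 and 613 in AS, with PS mouse 34 low and AS mouse 60 high in their groups.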
